A study of Mus musculus with 6 samples.

Results

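Transcripts of 40 genes that act in the G2 phase and mitosis, the stages in which a cell prepares to divide and separates its chromosomes, were measured by RNA sequencing in the proximal incisor. The genes were taken by name from the deposited table of estimated counts, which lists 25700 genes. All 40 were found, and all 40 were among the 19264 genes with enough counts to be tested. The 6 mice were C57BL/6 animals 5 weeks old, 3 of them conditional knockouts (cKO) of the genotype Gli1-CreERT2;Runx2fl/fl and 3 of them controls of the genotype Runx2fl/fl. Both groups carried the floxed allele of Runx2, a transcription factor of bone and tooth mesenchyme. The labels give tamoxifen injections on 3 days at 1 month of age to both groups, and tissue was taken 1 week after induction. Cre recombinase was present in the cKO mice alone and is active in cells that express Gli1, so RNA from cells without Cre is in the same library. Loss of Runx2 and presence of the Cre allele coincide in these groups and cannot be told apart.

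Runx2 itself measured 62.6, 53.97 and 49.0 counts per 1000000 (CPM) in cKO mice 1 to 3, against 79.7, 77.7 and 81.2 CPM in control mice 1 to 3 (log2 fold change -0.53, edgeR quasi-likelihood test, adjusted p = 0.0714). The groups did not overlap, but the difference did not pass the threshold of 0.05 over all genes with edgeR. With a second method, the DESeq2 Wald test, it did pass (adjusted p = 0.000128). Library totals lay between 53525185 and 66694240 counts. Control 1 was the 1 male, with 4059 counts of the Y-linked gene Ddx3y against at most 1 in the other mice. It also stood apart in skeletal muscle genes, whose 8 listed members added up to 339 CPM in that mouse and to 12.9 to 16.2 CPM in the other mice. With 1 such mouse, sex, muscle content and animal cannot be told apart. The labels call the tissue dental mesenchyme. Its 13 markers were present in every mouse, but so were the 12 markers of dental epithelium, among them the enamel genes Amelx and Ambn.

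Entry into mitosis is driven by cyclin-dependent kinase 1 bound to cyclin A or B. The kinase is held back by phosphorylation and released by the CDC25 phosphatases. The Aurora and Polo kinases then build the spindle, kinetochores tie chromosomes to it, and the spindle checkpoint delays separation until every chromosome is attached. The anaphase-promoting complex (APC/C) then marks cyclin B and other proteins for destruction, and the cell divides by cytokinesis. Most of these genes are transcribed late in the cycle, when the transcription factors B-MYB and FOXM1 act with the MuvB complex at a promoter sequence called the cell cycle genes homology region (CHR). DNA replication genes are in general transcribed earlier, through E2F factors. In the mouse incisor, which grows throughout life, dividing progenitors lie at the proximal end in both mesenchyme and epithelium.

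The promoter is the feature that most of these genes share and that their choice did not use. RefSeq promoters (assembly GRCm38.p6, 250 bases before to 50 after the annotated start) were listed for 33 of the 40 genes, and a gene with several was counted as holding a motif if any of them did. For 28 of the 33 the gene start in the deposited table lies inside a listed window. For Cdca8, Kif2c, Kif4, Mad2l1 and Mybl2 it lies outside, so their windows may not be the promoters of the transcripts counted here. The CHR was searched as TTTGAA or TTCGAA, the binding site of factor NF-Y as CCAAT, and the E2F site as TTTCCCGC, TTTCGCGC, TTTGCCGC or TTTGGCGC, each on both strands. A CHR match was found for 26 of the 33 mitosis genes (78.8%), for 9 of 41 replication genes (22.0%), and for 16.9% of the 12769 tested genes with a listed promoter. Among the 28 mitosis genes whose deposited start lies in the window, 23 had a match (82.1%). Counted per promoter rather than per gene, the share over all 32851 listed promoters was 19.2% for a CHR match, 37.4% for CCAAT and 2.26% for E2F. Counted per gene, a CCAAT match was found for 42.1% and an E2F match for 4.29% of the 12769 tested genes. A CCAAT match was found for 25 of the 33 mitosis genes (75.8%) and for 25 of 41 replication genes (61.0%), and an E2F match for 1 mitosis gene (3.03%) and 16 replication genes (39.0%). Both CHR and CCAAT were found for 23 mitosis genes, or 69.7%, and for 6.99% of tested genes. Such matches are letters in a window and no measurement of binding.

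Within the first 50 bases after the RefSeq start a CHR match began in 18 of the 33 mitosis genes (54.5%), in 2 of 41 replication genes (4.88%) and in 2.18% of tested genes. The promoters of 6 genes are shown because the measurements below turn on these genes. Capitals mark every CHR, CCAAT or E2F match, and ATTGG and TTCAAA are CCAAT and TTTGAA read on the other strand. In these promoters no match overlapped one of another motif. The stretches are Bub1 at chr2:127831810-127832109 (minus strand), Ndc80 at chr17:71526808-71527107 (minus strand), Top2a at chr11:99024140-99024439 (minus strand), Cdk1 at chr10:69352863-69353162 (minus strand), Mad2l1 at chr6:66534971-66535270 (plus strand) and Spc25 at chr2:69206164-69206463 (minus strand).
Bub1: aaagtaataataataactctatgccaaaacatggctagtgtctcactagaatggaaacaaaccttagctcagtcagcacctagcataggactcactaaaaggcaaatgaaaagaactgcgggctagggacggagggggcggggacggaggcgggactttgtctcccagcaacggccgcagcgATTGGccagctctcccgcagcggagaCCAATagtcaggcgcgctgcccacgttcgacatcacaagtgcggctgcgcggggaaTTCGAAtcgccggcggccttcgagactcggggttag
Ndc80: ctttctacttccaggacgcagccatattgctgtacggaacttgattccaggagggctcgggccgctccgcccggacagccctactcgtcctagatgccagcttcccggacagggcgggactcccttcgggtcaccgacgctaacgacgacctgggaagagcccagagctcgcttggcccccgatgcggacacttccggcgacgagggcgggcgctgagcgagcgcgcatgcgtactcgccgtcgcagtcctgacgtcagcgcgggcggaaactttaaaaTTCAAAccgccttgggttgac
Top2a: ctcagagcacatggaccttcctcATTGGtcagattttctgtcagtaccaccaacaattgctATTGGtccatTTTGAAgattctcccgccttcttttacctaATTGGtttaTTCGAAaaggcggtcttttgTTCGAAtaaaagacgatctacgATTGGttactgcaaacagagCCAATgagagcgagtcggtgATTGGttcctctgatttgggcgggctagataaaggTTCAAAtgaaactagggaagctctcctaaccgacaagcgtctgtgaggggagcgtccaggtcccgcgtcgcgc
Cdk1: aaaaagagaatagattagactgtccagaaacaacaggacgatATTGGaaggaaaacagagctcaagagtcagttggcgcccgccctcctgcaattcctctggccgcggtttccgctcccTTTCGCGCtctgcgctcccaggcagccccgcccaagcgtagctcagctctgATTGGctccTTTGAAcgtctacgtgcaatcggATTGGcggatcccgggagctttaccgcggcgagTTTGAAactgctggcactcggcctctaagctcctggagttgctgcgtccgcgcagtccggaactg
Mad2l1: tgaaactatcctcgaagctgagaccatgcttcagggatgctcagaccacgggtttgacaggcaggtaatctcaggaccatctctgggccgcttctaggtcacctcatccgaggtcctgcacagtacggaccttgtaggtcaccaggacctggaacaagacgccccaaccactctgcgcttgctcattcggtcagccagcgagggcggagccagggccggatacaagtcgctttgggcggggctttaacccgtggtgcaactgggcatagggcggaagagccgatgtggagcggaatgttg
Spc25: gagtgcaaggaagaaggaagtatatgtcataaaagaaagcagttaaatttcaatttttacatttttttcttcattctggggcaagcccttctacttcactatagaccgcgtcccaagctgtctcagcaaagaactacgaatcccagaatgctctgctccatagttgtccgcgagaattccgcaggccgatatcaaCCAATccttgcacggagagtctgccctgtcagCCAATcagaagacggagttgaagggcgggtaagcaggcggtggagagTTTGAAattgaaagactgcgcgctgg
Counted from 0 at the RefSeq start, the CHR match of Bub1 lies at bases 14 to 19, that of Ndc80 at 29 to 34 and that of Spc25 at 24 to 29. Cdk1 has one CHR match at -71 to -66, another at -15 to -10, and the 1 E2F match among the mitosis genes at -131 to -124. Top2a has 4 CHR and 6 CCAAT matches, and the stretch of Mad2l1 has none. The RefSeq start of Mad2l1 lies 169 bases upstream of its start in the deposited table, and the window ends before that start, so the sequence around the deposited start was not searched.

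**Figure D1:**
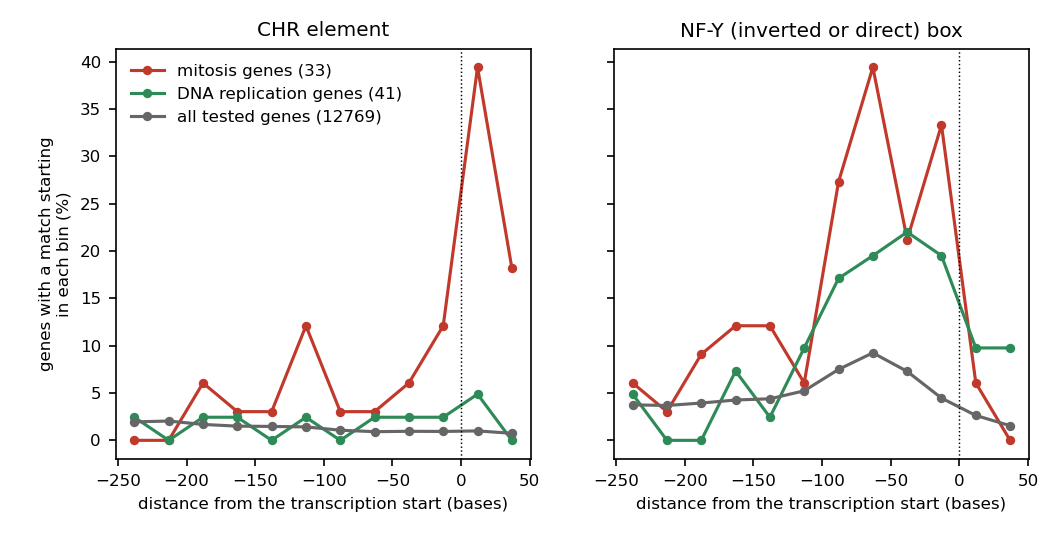
Position of CHR (left) and NF-Y (right) matches. The x axis is the distance from the annotated transcription start in bases, and the y axis the percentage of genes with a match that starts in each 25-base bin, for 33 mitosis genes, 41 DNA replication genes and 12769 tested genes. The mitosis genes peak just after the start for the CHR, where 39.4% have a match in the bin of bases 0 to 24, against 0.995% of tested genes. Only the first listed promoter of each gene is used here, whereas the shares per gene in the text count any listed promoter.

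Across the 40 mitosis genes, 39 had a log2 fold change below 0 in cKO mice, with a median of -0.34, a median level 0.789 times that of controls. No gene passed the test over all genes (edgeR quasi-likelihood test, lowest adjusted p = 0.161), and edgeR called 0.026% of all tested genes in either direction and 0.00519% as lower. At an unadjusted p under 0.05, 13 of the 40 were lower and 0 higher by edgeR, where 8.55% of all tested genes were lower. Without control 1 that number was 37, against 7.5% of all genes. It was 8, 3 and 5 without cKO 1, 2 and 3 (8.19%, 6.4% and 5.55% of all genes), and 3 and 4 without control 2 and 3 (8.15% and 5.73%). Of all tested genes, 50.0% were below 0, and their median was 0. DESeq2 called 3 of the 40 lower, Bub1, Ndc80 and Top2a (adjusted p = 0.0294, 0.0395 and 0.0466). It called 3.55% of all genes lower and 7.48% in either direction. Without control 1, DESeq2 called 33 of the 40 lower, against 3.44% of all genes. It called 0 of the 40 without cKO 1, cKO 2, cKO 3, control 2 or control 3, where 3.28%, 2.65%, 1.79%, 3.13% and 1.92% of all genes were called lower. With the same mice left out, edgeR called 0 of the 40 each time, against 0.224% of all genes without control 2, 0.0152% without control 3, 0.0051% without cKO 3 and 0% otherwise. The median was -0.21 without control 3, -0.50 without control 1, and between -0.31 and -0.35 without any other mouse. In tissue RNA, fewer dividing cells and less of each transcript per cell cannot be told apart.

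**Figure D2:**
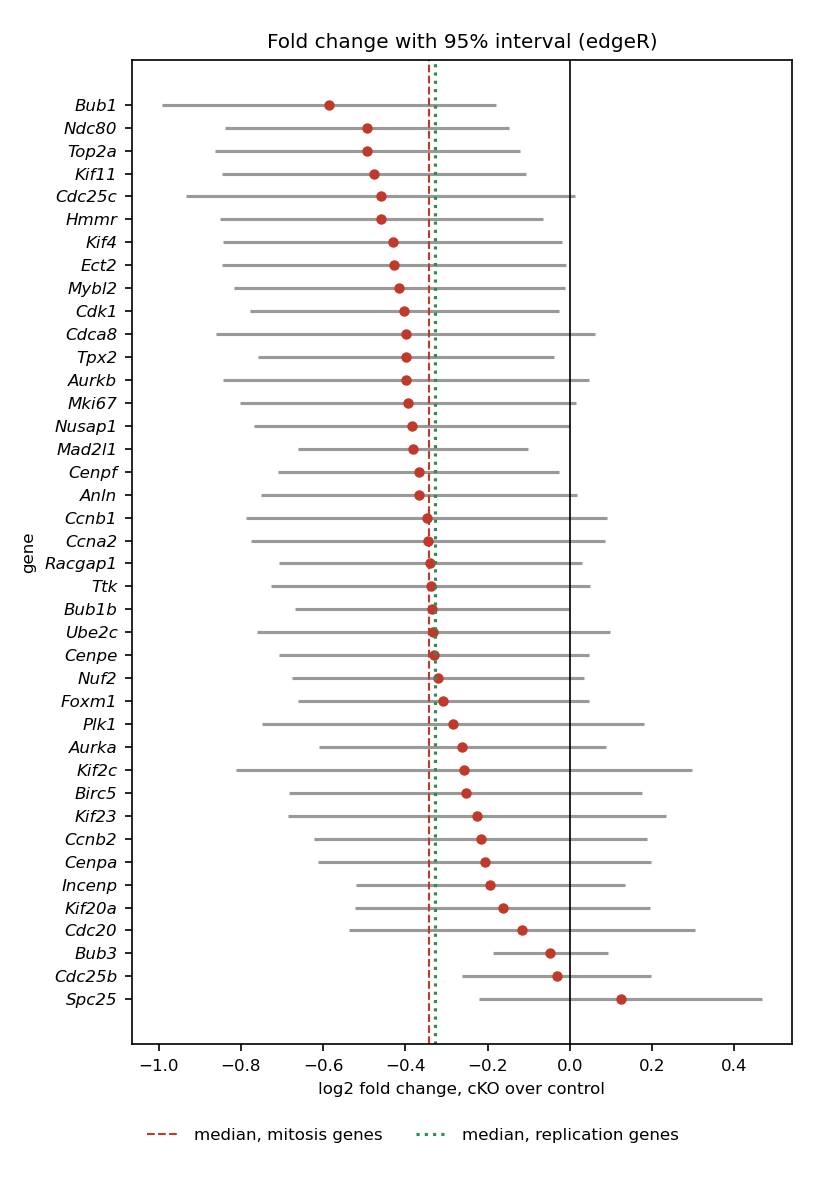
Log2 fold change (x axis, cKO over control) of each mitosis gene (y axis) with its 95% interval from edgeR, 3 mice per group. The dashed line is the median of the 40 mitosis genes (-0.34) and the dotted line that of 50 DNA replication genes (-0.33). All points except that of Spc25 lie below 0, and most intervals reach 0.

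The 3 cKO mice were close to each other, with a median ratio of highest to lowest of 1.10 over the 40 genes, whereas the controls had a median ratio of 1.585. Over all tested genes the same medians were 1.19 in cKO mice and 1.20 in controls. Control 3 was the highest of the 6 mice for 39 of the 40 genes, and for 4645 of all 19264 tested genes. Control 1 was the lowest control for 39 and the lowest of all 6 mice for 19, against 6143 and 2696 of all tested genes. The groups therefore overlapped for 36 genes. In the other 4, Top2a, Bub1, Mad2l1 and Ndc80, all cKO mice lay below all controls. That is 10.0% of the list, while 12.0% of all tested genes had this order. When control 1 was left out, a choice made after its values were seen, all cKO mice lay below both remaining controls for 38 of 40 genes, against 17.6% of all genes. Without cKO 1 the number was 10, against 19.0% of all genes, and without cKO 2 it was 6, against 17.3%. Without control 2 or control 3 it was 4, against 18.8% and 15.3% of all genes.

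**Figure D3:**
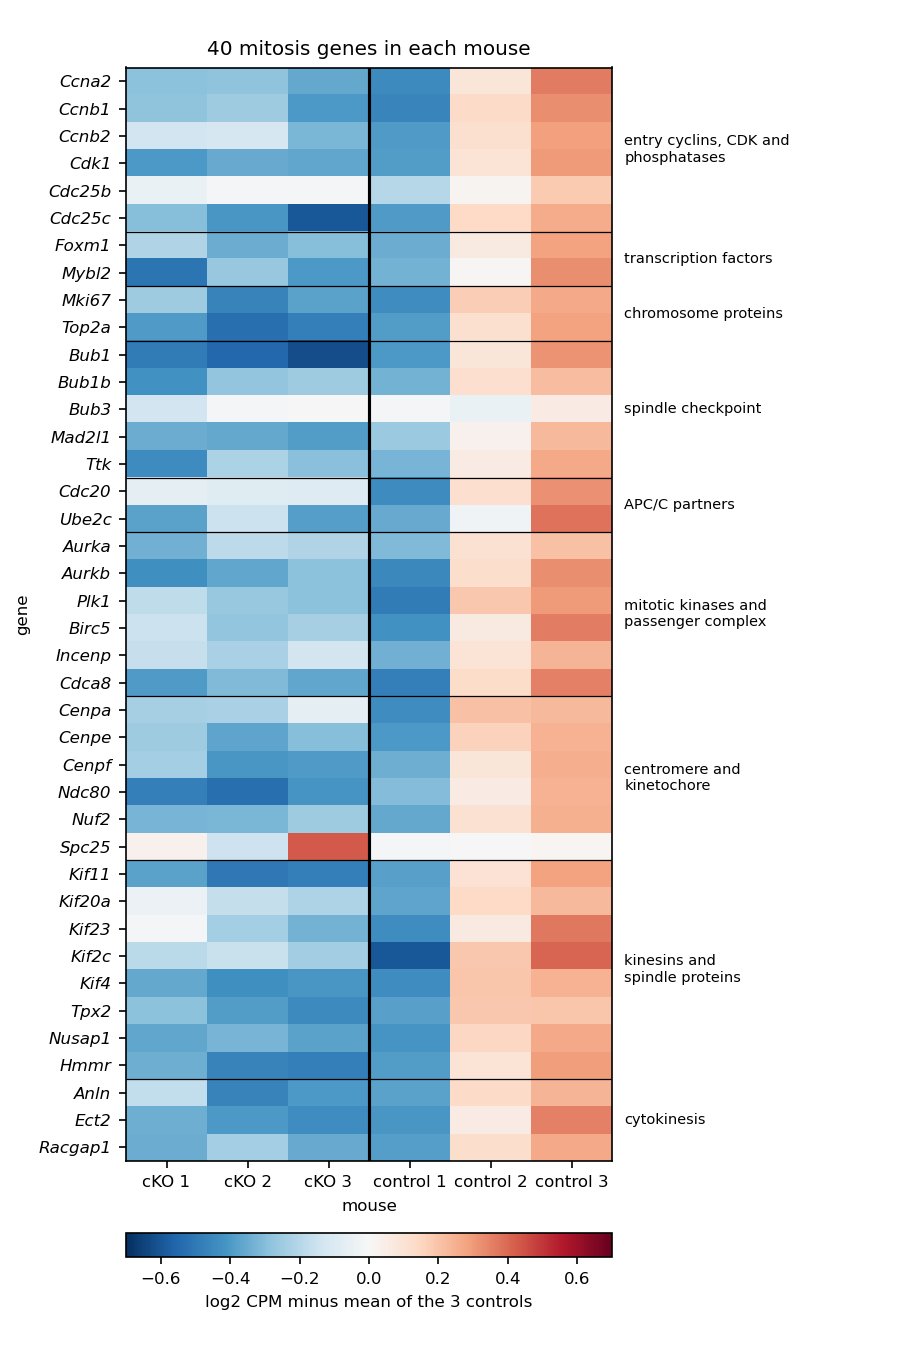
Each cell is the log2 CPM of 1 mitosis gene (y axis, grouped by role) in 1 mouse (x axis) minus the mean of the 3 controls for that gene. The cKO columns and control 1 are blue for most genes, control 2 is pale red and control 3 is the reddest column, and the pattern is least visible in Spc25, Bub3 and Cdc25b.

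Proteins of the chromosomes themselves had the highest transcript levels per length. Mki67 encodes Ki-67, the coat protein of mitotic chromosomes that is used as a marker of proliferation (chromosome 7, 135689784 to 135716361, build mm10). It measured 134, 116 and 124 CPM in cKO mice 1 to 3, against 118, 180 and 192 CPM in controls 1 to 3. Control 1 lay among the cKO mice, and the other controls lay above all of them. The log2 fold change was -0.39 (SE 0.173, edgeR adjusted p = 0.304). Top2a encodes topoisomerase II alpha, which untangles sister DNA (chromosome 11, 98992943 to 99024189). Its levels were 81.4, 74.2 and 76.8 CPM in cKO mice and 81.6, 115 and 130 CPM in controls. The groups did not overlap, by a margin in control 1 far smaller than the spread within groups. Its log2 fold change of -0.49 (SE 0.157) had an edgeR adjusted p of 0.189. Per kilobase of exonic sequence these genes ranked first and second of the 40 in both groups, at 12.4 CPM per kilobase in cKO mice and 16.3 in controls for Mki67, and 8.59 and 12.1 for Top2a. Cdc25c was last, at 0.516 CPM per kilobase in cKO mice and 0.709 in controls.

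Genes of mitotic entry had log2 fold changes from -0.46 to -0.032, all 6 below 0. Cdk1, the kinase that drives entry (chromosome 10, 69335146 to 69352938), measured 19.6, 20.3 and 20.1 CPM in cKO mice, against 19.8, 27.7 and 31.9 CPM in controls. The cKO mice spanned less than 1 CPM, and control 1 lay inside that span. The log2 fold change was -0.40 (SE 0.160, edgeR adjusted p = 0.262). Its partner cyclin B1, Ccnb1 (chromosome 13, 100778650 to 100786570), measured 15.1, 15.5 and 13.9 CPM in cKO mice and 13.3, 20.2 and 23.1 CPM in controls. Control 1 was the lowest of the 6 mice. The fold change on the log2 scale was -0.35 with an SE of 0.186 (edgeR adjusted p = 0.392). As much as 18.9% of the 75-base words of Ccnb1 transcripts recur in other genes, chiefly the pseudogene Ccnb1-ps, so its counts are uncertain. The other cyclins gave -0.35 (Ccna2) and -0.22 (Ccnb2). Of the phosphatases that activate Cdk1, Cdc25c gave -0.46 and Cdc25b gave -0.032 (95% interval -0.26 to 0.20). Exons of Cdc25c overlap Gm3550 over 12.7% of their length and those of Ccna2 overlap Exosc9 over 12.5%, on the opposite strand in both cases. The transcription factors Foxm1 and Mybl2, the gene of B-MYB, gave -0.31 and -0.41. For Mybl2, 17.1% of the 75-base words recur elsewhere, chiefly in Gm3320.

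The spindle checkpoint held the lowest value of the 40 and also a value close to 0. Bub1, a checkpoint kinase of the kinetochore (chromosome 2, 127801122 to 127831865), measured 10.5, 10.1 and 9.59 CPM in cKO mice and 11.2, 15.7 and 18.4 CPM in controls. All cKO mice lay below all controls, with the smallest distance to control 1. Its log2 fold change was -0.59 (SE 0.172, 95% interval -0.99 to -0.18, edgeR adjusted p = 0.161), and over the alternatives its adjusted p ran from 2.45e-06 with DESeq2 without control 1 to 0.362 with edgeR without control 3. Mad2l1, the inhibitor that holds back the APC/C (chromosome 6, 66535390 to 66547220), measured 20.0, 19.9 and 19.5 CPM in cKO mice and 21.3, 26.0 and 29.9 CPM in controls. The groups did not overlap, and the log2 fold change was -0.38 (SE 0.119, edgeR adjusted p = 0.179). The kinases Bub1b and Ttk, of which Bub1b encodes the checkpoint protein BubR1, gave -0.33 and -0.34. Bub3, which binds Bub1 and BubR1, measured 47.1, 51.4 and 51.7 CPM in cKO mice and 51.3, 50.03 and 53.8 CPM in controls. Its groups overlapped, and it gave -0.047, with a 95% interval of -0.19 to 0.093, the narrowest of the 40 genes. Among the APC/C partners, the activator Cdc20 gave -0.12 and the ubiquitin-conjugating enzyme Ube2c -0.33. Exons that make up 22.8% of Ube2c overlap Tnnc2, a skeletal muscle gene on the opposite strand.

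Mitotic kinases and the chromosomal passenger complex had log2 fold changes between -0.40 and -0.19. Aurkb, the kinase of that complex, and Cdca8, which encodes its subunit borealin, each gave -0.40. Birc5, the gene of survivin, gave -0.25, and the scaffold Incenp -0.19. The spindle kinases Aurka and Plk1 gave -0.26 and -0.28. None of the 6 had an unadjusted edgeR p under 0.05, and in none did the groups separate.

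Of 6 centromere and kinetochore genes, 5 lay below 0. Ndc80, the microtubule-binding subunit of the kinetochore complex named after it (chromosome 17, 71496100 to 71526857), measured 6.76, 6.54 and 7.08 CPM in cKO mice and 7.65, 9.85 and 11.2 CPM in controls. The groups did not overlap (log2 fold change -0.49, SE 0.146, edgeR adjusted p = 0.164). Nuf2, its partner in that complex, gave -0.32. Cenpf, a large kinetochore protein of G2 and mitosis (chromosome 1, 189640606 to 189688086), measured 34.5, 30.6 and 30.9 CPM in cKO mice, against 32.2, 43.2 and 48.5 CPM in controls. Control 1 lay inside the cKO range, and the log2 fold change was -0.37 (SE 0.145, edgeR adjusted p = 0.258). The kinetochore motor Cenpe and the centromeric histone Cenpa gave -0.33 and -0.21.

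Spc25, another subunit of the Ndc80 complex (chromosome 2, 69193895 to 69206194), was the 1 gene of the 40 above 0. It measured 11.5, 10.2 and 15.2 CPM in cKO mice, against 11.2, 11.3 and 11.4 CPM in controls. Its controls were almost equal and cKO 3 was the highest mouse, so it shared neither the low control 1 nor the high control 3 of its partners. The log2 fold change was 0.12 (SE 0.146, edgeR adjusted p = 0.715), and it was -0.056 without cKO 3. Its promoter carries a CHR match after the start, as printed above, and no exonic overlap with another annotated gene was found.

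All 8 motors and spindle proteins were below 0, and their median difference on the log2 scale was -0.39. Kif11, the motor that pushes spindle poles apart (chromosome 19, 37376403 to 37421859), measured 27.1, 24.9 and 25.3 CPM in cKO mice and 27.03, 37.7 and 42.7 CPM in controls. Control 1 lay just inside the cKO range (log2 fold change -0.48, SE 0.157, edgeR adjusted p = 0.197). Hmmr, a spindle-associated hyaluronan receptor (chromosome 11, 40701395 to 40733422), measured 11.8, 10.8 and 10.7 CPM in cKO mice and 11.5, 16.1 and 18.4 CPM in controls, and control 1 again lay among the cKO mice. Its log2 fold change was -0.46 (SE 0.167, edgeR adjusted p = 0.229). Tpx2, the activator of Aurora A on the spindle (chromosome 2, 152847964 to 152895321), measured 26.8, 24.98 and 24.0 CPM in cKO mice, against 25.1, 37.3 and 37.5 CPM in controls. Here control 2 and control 3 were nearly equal, and control 1 lay inside the cKO range (log2 fold change -0.40, SE 0.153, edgeR adjusted p = 0.247). The chromosome motor Kif4 gave -0.43, the spindle protein Nusap1 -0.38, the microtubule depolymerase Kif2c -0.26, and the midzone motors Kif23 and Kif20a -0.23 and -0.16. Exons of Kif20a overlap Cdc23 over 29.3% of their length and those of Kif4 overlap Pdzd11 over 15.1%, on the opposite strand in both cases. The cytokinesis genes Ect2, Anln and Racgap1, which set up the contractile ring, gave -0.43, -0.37 and -0.34.

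Compared with mitosis genes, replication genes gave nearly the same median, but control 1 stood differently against the cKO mice. Of 50 replication genes, 49 were below 0, with a median log2 fold change of -0.33 beside -0.34 for the mitosis genes. The order of the controls was shared. Control 3 was the highest control for 48 of the 50 and control 1 the lowest for 46, beside 40 and 39 of the 40 mitosis genes. Over all 19264 tested genes these counts were 7233 and 6143. The difference of the medians was -0.014, and its sign turned without control 2 (0.028) and without control 3 (0.0009). Of the 50, 32 were lower at an unadjusted edgeR p under 0.05, beside 13 of the 40 mitosis genes and 8.55% of all genes. With 1 mouse left out the replication number was 44 without control 1 and 15 to 21 otherwise, beside 37 and 3 to 8 for the mitosis genes. Of all genes, 7.5% were lower without control 1 and 5.55% to 8.19% otherwise. The groups did not overlap, with all cKO mice lower, for 29 of 50 replication genes (58.0%), against 4 of 40 mitosis genes (10.0%) and 12.0% of all tested genes. Without control 1 the replication number was 47, against the 38 of 40 mitosis genes given above and 17.6% of all tested genes. In single mice, the mitosis genes of control 1 had a median ratio of 0.957 to the cKO mean, those of control 2 of 1.35 and those of control 3 of 1.51. Replication genes had median ratios of 1.07, 1.22 and 1.46 in the same mice. Control 1 was thus at or below the highest cKO mouse for 36 of 40 mitosis genes and for 21 of 50 replication genes, where 71.4% of all tested genes had this order. This difference between the lists was not tested, since their genes share the same 6 libraries.

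**Figure D4:**
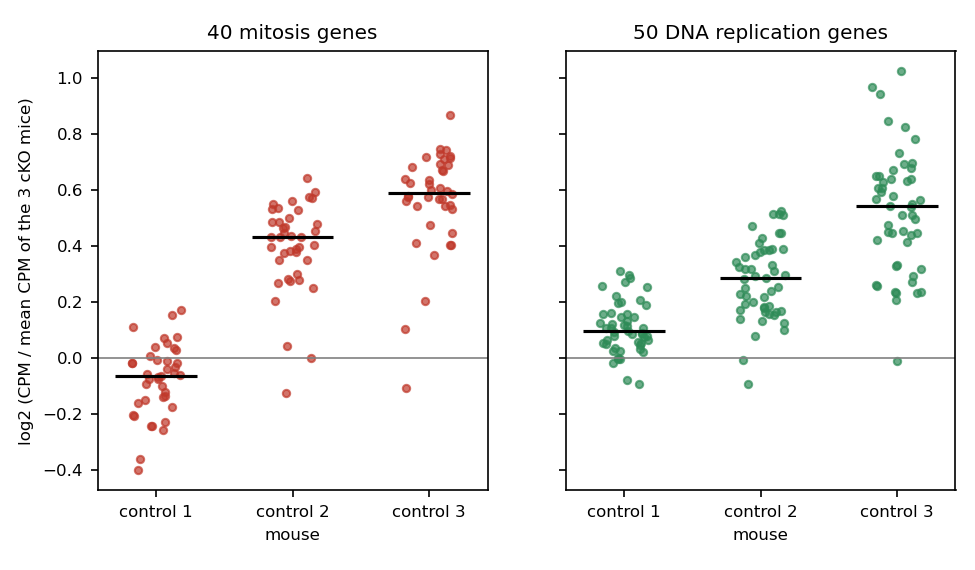
Log2 ratio of each control mouse (x axis) to the mean of the 3 cKO mice (y axis), 1 point per gene, for 40 mitosis genes (left) and 50 DNA replication genes (right). Black lines are medians. In control 1 the median is -0.063 for mitosis genes and 0.095 for replication genes, and in control 2 and control 3 it is above 0 for both.

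The replication genes named next were picked for their low p and do not stand for the list, in which the groups overlapped for 21 of 50. Lig1, the ligase that joins new DNA fragments, had the lowest edgeR p of the list. It measured 27.7, 28.0 and 26.0 CPM in cKO mice, against 31.1, 35.7 and 38.5 CPM in controls, without overlap (log2 fold change -0.36, SE 0.0873, edgeR adjusted p = 0.114). Prim2, a primase subunit, gave -0.43, the clamp loader subunit Rfc5 -0.34 and the sliding clamp Pcna -0.29, and in each the groups did not overlap (edgeR adjusted p = 0.117, 0.124 and 0.129). DESeq2 called 7 of the 50 replication genes lower, these 4 among them, where it called 3.55% of all genes. That number was 28 without control 1, 0 without cKO 1 or cKO 3, 3 without cKO 2 or control 2 and 2 without control 3. Of all genes, DESeq2 called 3.44% lower without control 1 and 1.79% to 3.28% without any other mouse.

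Of the other genes of G2 and mitosis, 65 were tested and 63 of them lay below 0, with a median log2 fold change of -0.37. No gene of this list passed by edgeR, and 27 lower and 1 higher had an unadjusted p under 0.05, where 8.55% of all genes were lower. The 27 became 53 without control 1, 16, 9 and 13 without cKO 1, 2 and 3, and 10 and 8 without control 2 and 3. Of all genes, 7.5% were lower without control 1 and 5.55% to 8.19% without any other mouse. The groups did not overlap for 16 of 65 with cKO mice lower (24.6%), against 12.0% of all genes, and for 58 of 65 without control 1, against 17.6%. The nuclear lamina gene Lmnb1 had the lowest p, at 66.0, 67.6 and 53.8 CPM in cKO mice and 82.2, 94.4 and 104 CPM in controls (log2 fold change -0.58, edgeR adjusted p = 0.0878). The kinase Melk gave -0.65 and the condensin II subunit Ncapg2 -0.42 (edgeR adjusted p = 0.110 and 0.116). Psrc1, a spindle protein that is also a p53 target, had the opposite sign, at 12.3, 11.2 and 10.4 CPM in cKO mice and 5.72, 8.45 and 7.97 CPM in controls. Its groups did not overlap, and its log2 fold change was 0.61 (SE 0.158, edgeR adjusted p = 0.129, DESeq2 adjusted p = 0.00924). DESeq2 called 6 of the 65 lower, among them Lmnb1, Melk and Ncapg2 (adjusted p = 0.0006, 0.0042 and 0.0129), and 1, Psrc1, higher. It called 3.55% of all genes lower and 7.48% in either direction. The 6 became 44 without control 1, against 3.44% of all genes. Without any other mouse they became 2 or 3, against 1.79% to 3.28%.

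Of 19 G1 cyclin and E2F genes, 16 lay below 0, with a median log2 fold change of -0.17. By edgeR 0 were called, and 9 were lower at an unadjusted p under 0.05, where 8.55% of all genes were lower. DESeq2 called 3 of the 19 lower, Cdk6 and E2f2 among them, against 3.55% of all genes. All cKO mice lay below all controls for 10 of the 19 (52.6%), against 12.0% of all tested genes. The G1 kinase Cdk6 gave -0.41 and the activator E2f2 -0.54 (edgeR adjusted p = 0.120 and 0.138). Of 7 CDK inhibitors, 4 were below 0 and the median was -0.051. Cdkn1a, the inhibitor p21, measured 142, 120 and 94.8 CPM in cKO mice and 141, 136 and 162 CPM in controls (log2 fold change -0.30, edgeR adjusted p = 0.344). Cdkn2b, the inhibitor p15, measured 8.30, 5.78 and 4.58 CPM in cKO mice and 3.37, 6.46 and 2.04 CPM in controls (0.65, edgeR adjusted p = 0.476). Both inhibitors overlapped between groups.

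**Figure D5:**
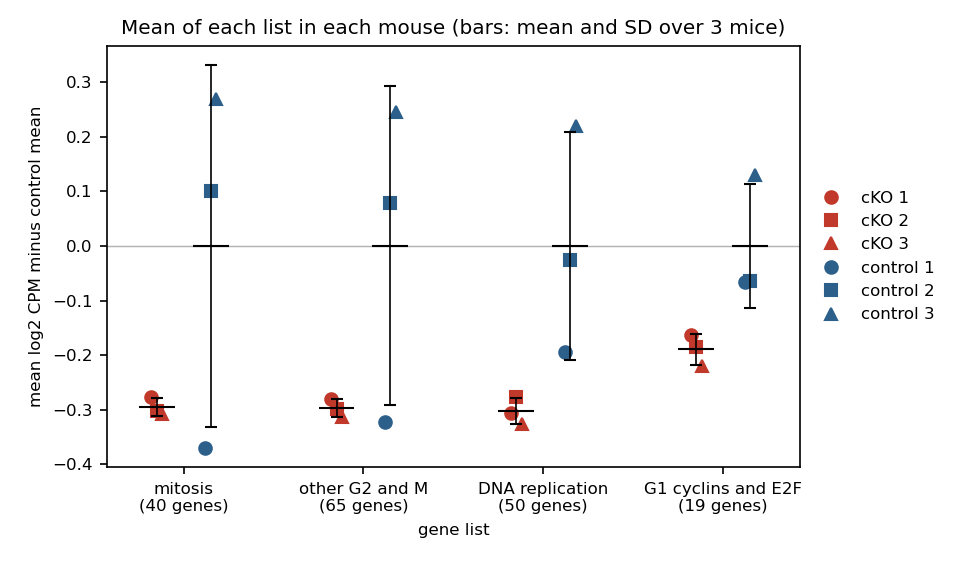
Mean log2 CPM of 4 gene lists (x axis) in each mouse, minus the control mean (y axis). Bars are the mean and SD of 3 mice. Mitosis genes of control 1 (-0.371) lie below those of cKO 1 to 3 (-0.277, -0.302 and -0.307), while replication genes of control 1 (-0.194) lie above those of the cKO mice (-0.306, -0.278 and -0.325).

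Markers of other cell types were summed in the same mice. Dental epithelium markers, 10 of 12 below 0 with a median log2 fold change of -0.36, added up to 31880, 44130 and 21440 CPM in cKO mice 1 to 3, against 55070, 55130 and 73260 CPM in controls 1 to 3, most of it Amelx and Ambn. None of these markers was at 0. Single markers differed in the order of the mice. The epithelial adhesion genes Epcam and Cdh1 had control 1 below the highest cKO mouse and control 3 highest of all, the order that most mitosis genes had. Epcam measured 63.0, 48.5 and 44.8 CPM in cKO mice and 54.8, 67.6 and 84.5 CPM in controls. Cdh1 measured 325, 243 and 209 CPM in cKO mice and 264, 343 and 362 CPM in controls. These markers were picked out after their values were seen. Dental mesenchyme markers had 12 of 13 values above 0 (median 0.11). Macrophage markers (7 of 7) and endothelial markers (6 of 6) were above 0, with medians of 0.56 and 0.25. Neutrophil and marrow markers added up to 48.1, 22.7 and 3.25 CPM in cKO mice and 2.53 to 3.77 CPM in controls, and erythroid markers to 84.2, 115 and 32.0 CPM in cKO mice and 25.9 to 53.9 CPM in controls. Lymphoid markers lay between 1.61 and 2.73 CPM in all 6 mice. Late enamel markers added up to 3104, 1866 and 1540 CPM in cKO mice and 644, 2325 and 671 CPM in controls. Of the control sums, Mmp20 alone supplied 532, 527 and 573 CPM, and it was lower in every cKO mouse (log2 fold change -0.29). Klk4, Odam, Amtn, Slc24a4 and Wdr72 were lower in control 1 and control 3 than in any other mouse. Odam, for example, measured 972, 565 and 407 CPM in cKO mice and 21.2, 720 and 10.5 CPM in controls. The part of these cell types in the levels of the mitosis genes was not tested.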

How the data were processed

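Alignment software (STAR 2.6.1d), Partek and the build mm10 are listed per the submitters' processing notes. No source used here gives the annotation, counting settings or strand. The authors deposited estimated counts for 25700 genes, 1 column per mouse, of which 45.6% to 48.0% were whole. They were rounded. A second deposited table, a scaled copy for fewer genes, was not used.

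The counts were scaled by TMM after filterByExpr (at least 10 in enough libraries, at least 15 in all) and tested with edgeR 4.0.16's quasi-likelihood F-test in R 4.3.3, two-sided, on all 6 libraries without covariates, with Benjamini-Hochberg adjustment over 19264 genes and a threshold of 0.05. The common dispersion corresponded to a coefficient of variation of 0.153. Each SE is the size of the fold change over the root of F. CPM use TMM-scaled library sizes, at which 1 count is worth 0.0149 to 0.0186 CPM, and list means use log2 CPM with a prior count of 2. DESeq2 1.42.0, other scalings, other filters and leaving out each mouse were alternatives. Each mouse has its own number in the labels, so replicates are separate animals, numbered here in accession order. The labels speak of 3 pairs of samples but not of which mice belong together. Pairs within groups differed by 50.8 to 80.8 chi-square per degree of freedom, so none was counted as a repeat.

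The 40 genes, the other lists and the tests were chosen with earlier results of these data known. Values in all mice are given for Mki67, Cdk1, Ccnb1, the 8 mitosis genes of lowest p and those with the highest and lowest fold change. Bub3 was added after its values were seen. From each other list the 4 genes of lowest p are named, or 2 for G1 genes and CDK inhibitors. Exonic lengths, overlaps and shared 75-base words come from GENCODE M21, which need not be the authors' annotation. Coordinates are those of the deposited table (mm10), less 1 base at the end. Because strand is not stated, reads of overlapping genes on opposite strands cannot be told apart. On simulated data of 18983 genes, the test found 68% of the genes given a log2 change of 1, and 95.7% where it was 2, with 11 false calls. Smaller changes, such as those of the mitosis genes, were not simulated. Counts were drawn for each gene separately, without shifts that many genes of a mouse share, so these shares hold for that setting only.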

Additional observations from a re-analysis of the deposited data

How the results depend on the processing

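The median of the mitosis genes stayed below 0 under every alternative, from -0.51 to -0.21 when 1 mouse was left out, with edgeR or DESeq2, and from -0.34 to -0.33 under other scalings, filters and DESeq2. The replication median ran from -0.41 to -0.21. The number of mitosis genes called lower was 0 in all edgeR fits, 3 with DESeq2, and 0 to 33 when 1 mouse was left out. The 33 came from DESeq2 without control 1, a fit added after the data were seen, where DESeq2 called 3.44% of genes lower. In the same mice edgeR called 0 of all genes, while 37 mitosis genes had an unadjusted p under 0.05, a number that was 13 with all mice and 3 to 8 without any mouse other than control 1. Without cKO 1, cKO 2, cKO 3, control 2 or control 3, DESeq2 called 0 mitosis genes lower. Over all genes edgeR called 5 and DESeq2 1327. With 1 mouse left out the number ran from 0 to 1279, of which edgeR gave 0 to 72, and DESeq2 1099, 902 and 743 without cKO 1 to 3 and 1279, 1195 and 718 without control 1 to 3. Of the named genes' values, 249 kept direction and side of the threshold under edgeR alternatives and 1 turned, while with DESeq2 on all mice 11 kept both and 14 passed. With DESeq2 and 1 mouse left out, 101 kept both, 48 passed and 1 turned. Without control 1 those that passed included Mki67, Cdk1, Ccnb1, Mad2l1, Kif11, Hmmr, Tpx2 and Cenpf. The values that turned were those of Spc25 without cKO 3, at -0.056 with edgeR and -0.053 with DESeq2, in a range of -0.056 to 0.25 when 1 mouse was left out. The cause was not tested. No paired analysis was possible because the labels speak of 3 pairs without saying which mice belong together, and no cKO and control mouse share a number.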

Other observations

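Within the 40 mitosis genes, the median difference was nearly the same with and without a CHR match in the promoter window. This was not tested, and the genes of lowest (Bub1) and highest (Spc25) log2 fold change both held a match. The 26 genes with a match had a median log2 fold change of -0.34 (range -0.59 to 0.12), and the 7 without one, Ccnb1, Mybl2, Mad2l1, Birc5, Cenpe, Nuf2 and Nusap1, had -0.35 (range -0.41 to -0.25), though for Mybl2 and Mad2l1 the window does not hold the start given in the deposited table. The 7 genes with no promoter in the table had -0.35. Among the other genes of G2 and mitosis, 39 of 54 genes with a listed promoter held a CHR match (72.2%), and 16 of the 54 genes held one within the first 50 bases after the RefSeq start. The mitosis genes took 0.0862%, 0.0818% and 0.0822% of all counts in cKO mice 1 to 3, and 0.0802%, 0.111% and 0.122% in controls 1 to 3.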
